A study of Saccharomyces cerevisiae with 144 samples.

Results

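Newly synthesised RNA was measured by SLAM-seq in a budding yeast strain whose degron-free copy of Bdf1 carries mutations in both bromodomains, after depletion of the endogenous protein. The 6 libraries of this strain, called mBD1/2, were taken by the label of the strain table, and they were 6 of 144 libraries of 23 strains. Of them, 3 came from cultures treated with IAA (indole-3-acetic acid, an auxin, at 1 mM for 25 min) and 3 from cultures treated with the solvent DMSO, and in all of them RNA was then labelled with 5 mM 4-thiouracil (4tU) for 4 min. All strains set side by side here were MATα and derived from BY4705, with OsTIR1 expressed from the GPD1 promoter and an auxin-inducible degron (mAID with 3 V5 tags) on endogenous BDF1 and BDF2. mBD1/2 carried in addition a BDF1 copy with both bromodomains mutated, expressed from the BDF1 promoter at the TRP1 locus. The comparison strains carried there a copy without both bromodomains (ΔBD1/2), a copy with 4 substitutions in the extra-terminal domain, mET(4), an unmodified copy (WT), or no further copy (Bdf1/2-AID). In mBD1 and mBD2, also compared, the copy was mutated in a single bromodomain, BD1 or BD2. The other strains, each with another BDF1 variant, enter only counts and an ordering of strains. Among them are ΔB, whose copy lacks motif B, and ΔNPS/CPS, whose copy lacks the N- and C-terminal phosphorylation regions. Each strain had 3 IAA and 3 DMSO libraries, except WT, which had 6 of each (replicates A to F). Which residues were changed in the bromodomains is not used here.

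Bdf1 and Bdf2 are the BET proteins of yeast, and either is needed for growth. Each has a pair of bromodomains, modules that bind acetylated lysines and prefer the multiply acetylated tail of histone H4, followed by an extra-terminal domain that binds other proteins. Bdf1 works with TFIID, the general factor that brings TATA-binding protein to promoters, and with SWR1, the complex that places the histone variant H2A.Z next to them. The acetyl marks that bromodomains read are laid down by complexes such as NuA4 and SAGA and removed by deacetylases. A loss of BET function in yeast therefore bears on the transcription of many genes at once, and the comparison of IAA with DMSO within mBD1/2 asks what is left of it when the remaining copy lacks working bromodomains.

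The mBD1/2 libraries held 7382444 to 11414541 counted reads, of which 214425 to 353568 were T>C reads, that is, reads with at least 2 T>C conversions, which mark RNA made during labelling. Levels of new RNA are given as T>C reads per 10M, that is, per 10000000 counted reads. The labels were checked in total reads, given as RPM (per 1000000 counted reads). BDF1, which collects reads of the tagged gene and of the integrated copy, averaged 253.3 RPM in IAA and 252.7 in DMSO, against 96.3 to 140.0 in the 6 libraries of the parental strain Bdf1/2-AID. TRP1, whose locus received the plasmid, had 13.2 to 21.7 RPM in IAA and 11.1 to 15.5 in DMSO, and 1.17 to 2.58 in Bdf1/2-AID. The 3 genes specific to α cells, which include the pheromone genes MF(ALPHA)1 and MF(ALPHA)2, summed to 815 to 1236 RPM in IAA and 937 to 1461 in DMSO. The 6 genes specific to a cells summed to 21.2 to 59.0 in IAA and 24.0 to 55.1 in DMSO, and each of the 6 reached 1 RPM in at least 1 library. HIS3, LEU2, LYS2 and MET17, genes of the auxotrophic background, lay between 0.135 and 7.13 RPM in the 6 libraries. ADE2 and URA3, read in the same check and also listed as genes of the strain construction, lay higher in these libraries. ADE2 had 7.82 to 12.9 RPM and URA3 had 683 to 1356 RPM. The source of the URA3 reads was not tested.

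The mRNAs of the BET proteins themselves did not pass the test. BDF1 had 381.99, 445.05 and 429.66 T>C reads per 10M in IAA and 355.03, 499.11 and 570.37 in DMSO, a log2 change of −0.18 ± 0.21 (SE, edgeR quasi-likelihood, adjusted p = 0.507). BDF2 had 374, 362 and 242 in IAA and 360, 339 and 369 in DMSO, a log2 change of −0.13 ± 0.21 (SE, adjusted p = 0.645). The degron acts on the proteins, so these values are no check of the depletion.

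IAA treatment lowered the share of newly made RNA in mBD1/2. T>C reads were 2.90%, 2.91% and 2.39% of all counted reads in IAA, against 3.43%, 3.74% and 3.88% in DMSO. The groups did not overlap, and their means were 2.73% ± 0.30 in IAA and 3.68% ± 0.23 in DMSO (SD, n = 3 each), a ratio of 0.743 (exact two-sided permutation p = 0.10, the smallest that 3 against 3 libraries allow). The exact binomial intervals of single libraries, which cover counting error only, were narrower than the gap between the groups. The same measure had a mean of 2.53% in IAA and 3.56% in DMSO in ΔBD1/2, a ratio of 0.711, and 1.87% and 3.00% in mET(4), a ratio of 0.625. In Bdf1/2-AID it was 1.52% in IAA and 3.05% in DMSO, a ratio of 0.499, while WT also fell, to 3.06% in IAA against 3.85% in DMSO, a ratio of 0.795 (n = 6 each, exact two-sided permutation p = 0.00216). In bulk RNA, fewer cells that transcribe and less new RNA per cell cannot be told apart.

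**Figure D1:**
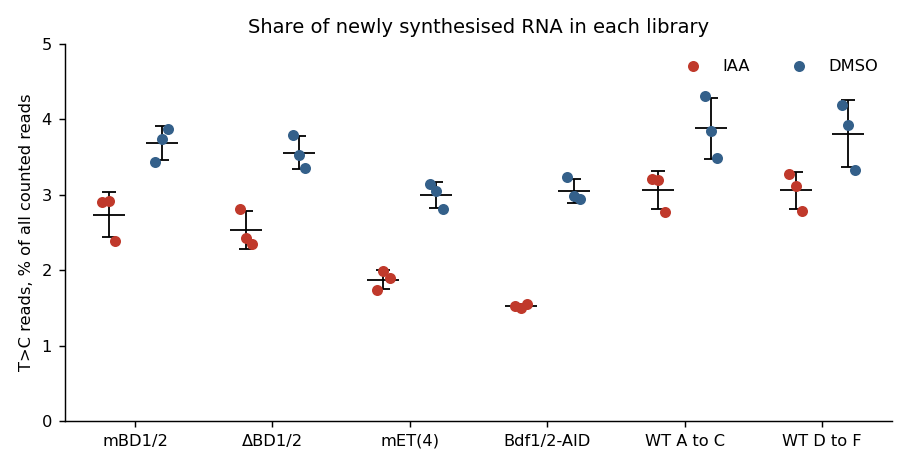
Share of T>C reads in each library (percent of counted reads, y axis) for mBD1/2 and 5 comparison sets (x axis), IAA in red left of DMSO in blue, with the mean and SD of 3 libraries. In mBD1/2 the IAA libraries lie at 2.39% to 2.91%, below the DMSO libraries at 3.43% to 3.88%.

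Gene by gene, the fall was broad and of moderate size. Of 6465 genes counted, 5251 had a T>C read in each of the 6 libraries and were tested by edgeR's quasi-likelihood test with library totals as the scale and Benjamini-Hochberg adjustment. The median log2 change was −0.65, that is, 0.637 of the DMSO level, and 4751 genes (90.5%) had a fitted change below 0, with the 25th and 75th percentiles of all changes at −0.94 and −0.34. At an adjusted p under 0.05, 1161 genes were lower (22.1% of those tested) and 6 were higher (0.114%). Without adjustment, 2138 and 26 had a p below 0.05. The median over genes of single libraries, on a log2 scale with a pseudocount of 0.5 reads, was 4.08, 4.24 and 3.86 in IAA and 4.54, 4.80 and 4.86 in DMSO (exact two-sided permutation p = 0.10, the smallest possible). The 3 IAA libraries lay below all 3 DMSO libraries for 2249 genes (42.8%) and above them for 23 (0.438%).

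The count of genes called lower rested on the scale and on single libraries. RPL41A, a ribosomal protein gene whose reads the counting may divide with its paralog, took 19.5%, 17.9% and 20.9% of reads in IAA and 16.9%, 13.8% and 12.02% in DMSO, and the 10 genes with most reads took 37.7% to 40.0% in IAA and 28.0% to 37.1% in DMSO, so the pool that the T>C reads were divided by differed between treatments. With median-of-ratios size factors of total reads, the median was −0.25, with 0 genes called lower and 4 higher by edgeR (647 and 166 without adjustment). With library totals taken without those 10 genes, the median was −0.49, and 219 genes were called lower and 5 higher. Outside those 10 genes, T>C reads made up 4.15%, 4.22% and 3.34% of reads in IAA and 4.80%, 4.76% and 4.92% in DMSO, again without overlap. Leaving out DMSO replicate C left 2.59% of genes lower, DMSO replicate B 6.21%, IAA replicate A 13.5% and IAA replicate C 13.8%, and the count of genes higher was 1 without DMSO replicate C, 3 without IAA replicate B and 20 without IAA replicate C. Of the 1161 genes, 103 were called whichever library was left out. The changes below are on the scale of library totals unless another is named.

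**Figure D2:**
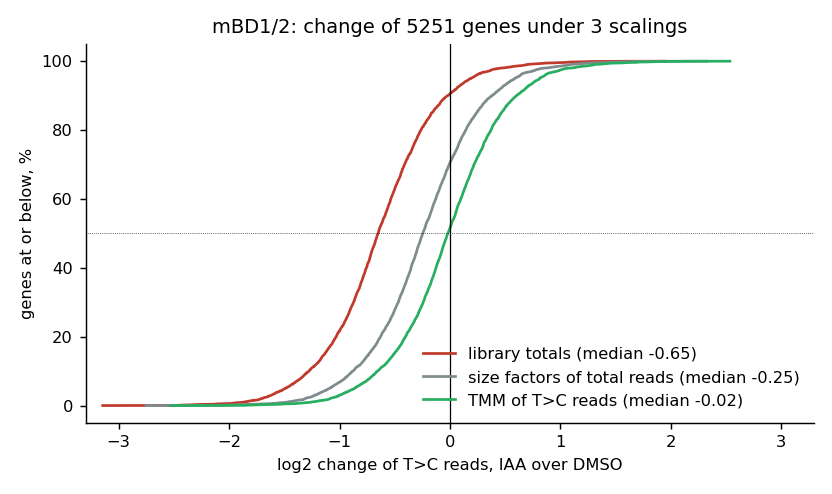
Share of the 5251 genes (percent, y axis) with a log2 change of T>C reads, IAA over DMSO, at or below the value on the x axis, under 3 scalings. The curves have nearly the same shape and are shifted, with medians of −0.65 for library totals, −0.25 for size factors of total reads and −0.02 for TMM factors of the T>C reads.

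The genes described first as falling are the 10 largest falls among called genes with at least 50 T>C reads on average in DMSO and no overlap between the groups. CBP6 (YBR120C, chrII:480185-480923, R64), which helps translate mitochondrial cytochrome b mRNA, had 33.9, 25.4 and 31.2 T>C reads per 10M in IAA and 78.3, 105.5 and 64.7 in DMSO. Its log2 change was −1.46 ± 0.29 (SE, adjusted p = 0.00419). The IAA libraries lay close together and well below all DMSO libraries, of which replicate B was highest.

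The splicing factors SYF2 and ISY1, both of the complex around Prp19 that acts in the activated spliceosome, were also among them. SYF2 (YGR129W, chrVII:750400-751297) had 36.6, 20.1 and 22.6 in IAA and 70.3, 64.02 and 76.8 in DMSO (log2 change −1.44 ± 0.30 SE, adjusted p = 0.00419). ISY1 (YJR050W, chrX:528697-529654) had 24.4, 32.4 and 31.2 in IAA and 68.1, 77.1 and 89.9 in DMSO (−1.40 ± 0.29 SE, adjusted p = 0.00419). The uncharacterised YNL162W-A, the fourth gene of the 10 whose counted region touches no neighbour on its strand, spread more, with 31.2, 14.9 and 18.3 in IAA and 63.5, 39.12 and 70.2 in DMSO (−1.47 ± 0.33 SE, adjusted p = 0.00560).

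The other 6 largest falls share a stretch of their counted region with a neighbour on the same strand, so a read can have been counted for both genes. They were PEX8 (peroxisomal import) and MRPL25 (mitochondrial ribosome), which share 84 bases with each other, TAN1 (tRNA cytidine acetylation, sharing with SEC15), GPI14 (glycolipid anchor synthesis, with TMA22), ECM1 (export of pre-60S ribosomes, with BDH1) and GET2 (insertion of tail-anchored proteins, with UTP7). PEX8 had 29.8, 22.8 and 22.6 in IAA and 54.4, 67.6 and 87.7 in DMSO (log2 change −1.49 ± 0.30 SE, adjusted p = 0.00419). The changes of the other 5 lay between −1.48 and −1.39, and none of their IAA values reached the lowest DMSO value. Over all genes tested, the 1004 that share such a stretch had a median log2 change of −0.69 and the others −0.64, and without them 935 genes were lower and 4 higher.

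Total reads of these 10 genes also lay lower in IAA. They include the T>C reads by which the genes were chosen, in the same libraries, and so are no separate evidence. CBP6 had 19.8, 19.4 and 22.4 RPM in IAA and 33.6, 36.2 and 37.0 in DMSO, a log2 change of −0.79 (edgeR, adjusted p = 0.0197). Over the 10, the log2 changes of total reads lay between −0.95 and −0.75. Across the 5251 genes, total reads were lower for 1063 (20.2%) and higher for 8 (0.152%) on library totals, with a median log2 change of −0.42. With TMM factors edgeR called 0 lower and 2 higher (6.42% and 9.01% of genes without adjustment). When each gene's T>C reads were divided by its own total reads, the median log2 change was −0.25, with 10 genes lower and 0 higher by edgeR (740 and 19 without adjustment).

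Few genes rose. PDR12 (YPL058C, chrXVI:445592-450377), the plasma membrane pump that exports weak organic acids, had 39.3, 99.9 and 65.7 T>C reads per 10M in IAA and 19.3, 29.6 and 38.4 in DMSO, a log2 change of 1.25 ± 0.32 (SE, edgeR, adjusted p = 0.0105). IAA replicate A exceeded DMSO replicate C only narrowly, and leaving out 1 library raised the adjusted p to 0.0608 at most. Total PDR12 reads separated more widely, with 53.6, 81.3 and 67.6 RPM in IAA and 23.0, 19.6 and 29.1 in DMSO (edgeR, adjusted p = 0.0100). Relative to its own total reads, PDR12 had a log2 change of T>C reads of −0.26. The rise was not particular to mBD1/2: total PDR12 reads were higher in every IAA library than in every DMSO library of the same strain in all 22 other strains, WT included, and the log2 change of its T>C reads was above 0 in 21 of them, with a median of 1.09 and a lowest value of −0.06 in Bdf1/2-AID.

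SER3 (YER081W, chrV:322686-324345), which opens serine synthesis, had 100.2, 108.6 and 61.4 in IAA and 54.4, 48.6 and 53.7 in DMSO (log2 change 0.78 ± 0.27 SE, adjusted p = 0.0315). Leaving out 1 library raised the adjusted p of SER3 (edgeR) to as much as 0.115. The counted region of SER3 overlaps that of SRG1, the noncoding RNA that runs over the SER3 promoter. Reads of the pair cannot be told apart there. HSP12, a small stress protein of the membrane, had 24.4, 45.6 and 84.0 in IAA and 17.01, 29.6 and 10.97 in DMSO (1.44 ± 0.37 SE, adjusted p = 0.0105), with overlap between the groups. GLK1, a glucokinase whose region shares 356 bases with YCL042W, had 25.7, 42.9 and 37.7 in IAA and 9.07, 22.5 and 14.3 in DMSO (1.23 ± 0.37 SE, adjusted p = 0.0204). Every GLK1 value in IAA exceeded all DMSO values, though fewer than 50 T>C reads stood behind each mean. The remaining genes called higher, named after their values were seen, were ETS2-1, a spacer of the ribosomal RNA precursor, with a log2 change of 1.26, and the noncoding YNCM0033C, with means of only 5.96 T>C reads per 10M in IAA and 1.53 in DMSO. Across the 22 other strains, the log2 change was above 0 in 18 for SER3, 19 for HSP12, 18 for GLK1 and 10 for ETS2-1. Of these strains, SER3 was called higher in 5, HSP12 in 2, and GLK1 and ETS2-1 in 0. In WT, SER3 changed by −0.0027, HSP12 by 0.78, GLK1 by −0.28 and ETS2-1 by −0.30, none of them called. PCL1 (a cyclin of the Pho85 kinase), GPD1 (glycerol synthesis) and ENO1 (an enolase) had no overlap and log2 changes of 0.55, 0.66 and 0.73, and missed the threshold (adjusted p = 0.0587, 0.0671 and 0.0696).

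**Figure D3:**
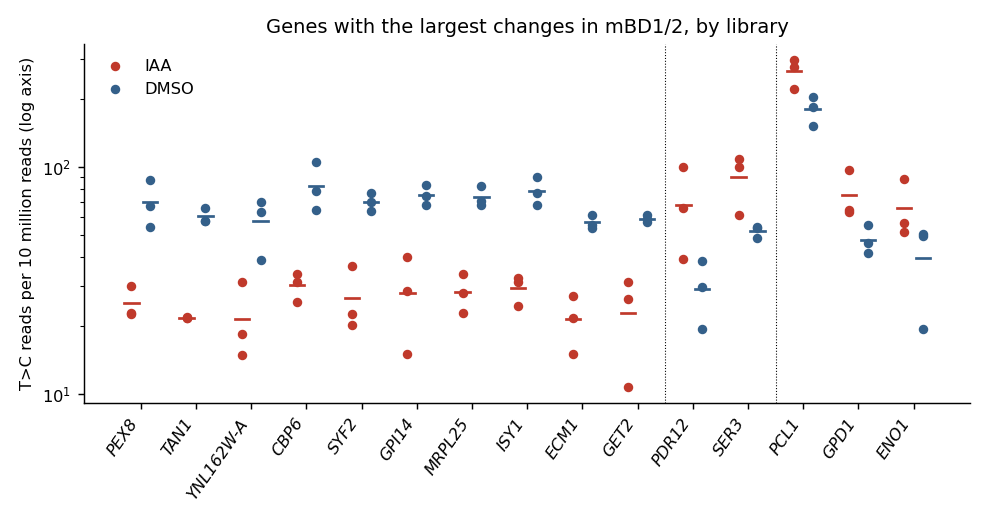
T>C reads per 10M (log axis) of the 10 largest falls, the 2 largest rises and 3 rises that missed the threshold, separated by dotted lines, in each mBD1/2 library (points, IAA in red left of DMSO in blue, bars are means). Within each of the first 10 genes all IAA points lie below all DMSO points of that gene; over the 10 genes IAA runs from 10.8 to 40.3 and DMSO from 39.12 to 105.5.

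The promoter windows of a pair of genes that rose and a pair that fell are printed to let the reader compare their elements. Each runs from 300 to 101 bases before the start codon, on the strand of the gene (RefSeq, R64), with capitals at matches on either strand to a TATA element (TATAAAA, its variant TATAAAT, the longer alternation TATATAA, or else TATATAT) or to GATGAG, the core of the PAC element of ribosome biogenesis genes.
PDR12 (chrXVI:450478-450677, minus strand): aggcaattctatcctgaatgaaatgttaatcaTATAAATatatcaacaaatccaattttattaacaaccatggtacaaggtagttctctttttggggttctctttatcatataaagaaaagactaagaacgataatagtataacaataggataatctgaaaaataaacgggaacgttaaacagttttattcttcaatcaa
HSP12 (chrVI:106956-107155, plus strand): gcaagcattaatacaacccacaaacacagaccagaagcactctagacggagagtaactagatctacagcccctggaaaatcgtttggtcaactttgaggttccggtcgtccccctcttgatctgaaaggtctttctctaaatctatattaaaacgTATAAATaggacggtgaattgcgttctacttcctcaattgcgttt
CBP6 (chrII:481024-481223, minus strand): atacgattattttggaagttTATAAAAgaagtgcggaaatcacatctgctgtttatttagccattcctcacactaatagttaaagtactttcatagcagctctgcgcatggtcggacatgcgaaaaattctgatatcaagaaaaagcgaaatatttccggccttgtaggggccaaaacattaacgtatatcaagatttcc
SYF2 (chrVII:750100-750299, plus strand): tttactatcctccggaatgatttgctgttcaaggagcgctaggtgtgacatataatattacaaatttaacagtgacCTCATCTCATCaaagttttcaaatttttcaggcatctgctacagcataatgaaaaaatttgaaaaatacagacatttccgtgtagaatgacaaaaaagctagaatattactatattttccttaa
PDR12, HSP12 and CBP6 each hold 1 TATA match, and SYF2 holds 2 overlapping GATGAG matches on the opposite strand. Of 4985 such windows of tested genes, 39.9% hold a TATA match, and 38.3% of those of genes called lower. Genes with a match had a median log2 change of −0.65 and those without −0.68. GATGAG is in 13.8% of all windows and 17.4% of those of genes called lower, and the medians were −0.71 with it and −0.66 without. Genes with GATGAG were called lower in 29.1% of cases and those without in 22.1%. Among the lists described below, a TATA match was in 83.3% of the windows of glycolytic genes and 82.4% of those of stress genes, and GATGAG in 65.3% of those of ribosome biogenesis genes.

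Genes of the transcription machinery that Bdf1 works with fell about as much as the rest, in T>C reads on library totals. Of 15 genes of TFIID, 5 were lower and 0 higher, with a median log2 change of −0.71, beside 22.1% lower and −0.65 over all genes. TAF1, the scaffold of TFIID, had 24.4, 20.1 and 19.4 T>C reads per 10M in IAA and 38.6, 30.8 and 54.8 in DMSO (log2 change −0.97, adjusted p = 0.0360), and TAF8 and TAF13 changed by −1.38 and −1.01. TAF7, the subunit that binds Bdf1, was also called lower, at −0.71 (adjusted p = 0.0384). For SWR1 and H2A.Z, 3 of 12 genes were lower, with a median of −0.62: SWC3 at −1.42, YAF9 at −1.26 and VPS72, which carries H2A.Z, at −0.82. Each TAF1 value in IAA lay below all of its DMSO values, as held for 42.8% of all tested genes. Leaving out 1 library raised the adjusted p (edgeR) to as much as 0.243 for TAF1, 0.188 for TAF8 and 0.168 for TAF13. For SWC3, YAF9 and VPS72 it rose to as much as 0.0944, 0.0876 and 0.0799.

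For the acetylation machinery, too, counts are to be read beside the 22.1% of all tested genes that were lower. In NuA4, 7 of 12 genes were called lower (58.3%) and the median was −0.79, among them the catalytic subunit ESA1 (−0.90, adjusted p = 0.0125) and EAF7 (−1.33), with 16.3, 14.9 and 25.8 in IAA and 35.2, 66.4 and 42.8 in DMSO. In SAGA 4 of 13 were lower (30.8%) with a median of −0.89, SGF11 at −1.81 and NGG1 at −0.95, and in deacetylase complexes 4 of 14 (28.6%) with a median of −0.75, SDS3 at −1.17 and SET3 at −0.93. RNA polymerase II had 4 of 12 subunits lower (33.3%, median −0.57) and the elongation factors 4 of 17 (23.5%, median −0.59), with the histone chaperone gene POB3 at −0.98 and SPT5 at −0.72. In all these lists every tested member had a fitted change below 0 on library totals, as had 90.5% of all genes. The share of calls also rose with reads, to 39.4% among the genes with the highest levels. The median gene had 97.8 T>C reads in DMSO for RNA polymerase II and 51.3 for elongation. It had 39.8 for NuA4, 28.3 for SAGA and 22.8 for the deacetylases, against 23 over all genes. Leaving out 1 library raised the adjusted p of EAF7 (edgeR) to as much as 0.0873. With TMM factors of the T>C reads, which set the overall shift close to 0, the median was −0.26 for SAGA, −0.15 for NuA4, −0.11 for the deacetylases, −0.06 for TFIID, 0.01 for SWR1 and 0.06 for both RNA polymerase II and the elongation factors.

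Of 101 ribosome biogenesis genes, 54 were lower (53.5%, against 22.1% of all genes tested) and 0 higher, with a median log2 change of −0.75 beside −0.65 over all genes. The share of calls rose with the reads of a gene, to 39.4% among the genes with the highest levels, and the median gene of this list had 65.7 T>C reads in DMSO, against 23 over all genes. BUD23, which methylates 18S ribosomal RNA, had 5.42, 6.13 and 4.31 in IAA and 19.3, 15.4 and 21.9 in DMSO (−1.80, adjusted p = 0.0131), and RIO1 and UTP18, of the small subunit, changed by −1.60 and −1.41. Of 19 subunits of RNA polymerases I and III, 8 were lower (42.1%, median −0.73), and of 67 mitochondrial ribosomal protein genes 26 were (38.8%, median −0.77, MRPL40 at −1.87 and RSM26 at −1.62). Of 138 cytosolic ribosomal protein genes 42 were lower (30.4%, in a list whose median gene had 309 T>C reads in DMSO) with a median of −0.50, which became −0.09 with size factors and turned to 0.13 with TMM factors of T>C reads. Reads of paralogous ribosomal protein genes are uncertain, since the counting may divide them. RPL24A, for which 281.8, 271.6 and 299.4 T>C reads per 10M were counted in IAA and 433.3, 569.1 and 557.2 in DMSO, changed by −0.87 (adjusted p = 0.00825).

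Glycolysis and stress genes stood at the other end. Their counts are to be read beside the 22.1% lower and 0.114% higher among all genes tested. Of 18 glycolytic genes 0 were lower and 1, GLK1, was higher at an adjusted p under 0.05, and the median log2 change was 0.20, which is 0.85 above that of all genes. In total reads the list lay 0.52 above the median of all genes, and in T>C reads over the gene's own total reads 0.37 above it. The main enzymes sat near 0: TDH3 (glyceraldehyde-3-phosphate dehydrogenase) at −0.01, CDC19 (pyruvate kinase) at 0.05 and ADH1 (alcohol dehydrogenase) at 0.14, none past the threshold. Of 17 genes of the general stress response under Msn2 and Msn4, 0 were lower and 1, HSP12, was higher, with a median of 0.25, and DDR2 at 1.10 missed the threshold (adjusted p = 0.0507). The median gene of this list had only 15 T>C reads in DMSO, against 23 over all genes, which limits its calls. Hexose transporters and their regulators (8 tested, 0 called) had a median of 0.14, and 4 of the 8 lay below 0. They ran from RGT2, a glucose sensor, at −0.91 (adjusted p = 0.186) to the transporter HXT7 at 0.83 (adjusted p = 0.0580). These lists also lay above the median of all genes in ΔBD1/2, glycolysis by 0.77 and stress genes by 0.99, and in Bdf1/2-AID by 1.95 and 1.62. In WT the same distances were 0.12 and 0.42. The difference between strains in these distances was not tested.

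Histone genes moved little. For the counts in the lists that follow, 22.1% of all genes tested were lower and 0.114% higher. Of 11, only CSE4, the centromeric histone H3, was called lower (−0.83, 69.1, 68.3 and 59.2 in IAA and 120.2, 104.3 and 125.0 in DMSO), and the median was −0.18. The chaperones driven by Hsf1 (21 tested, median −0.29) and the redox genes driven by Yap1 (16 tested, median −0.21) had 0 genes called in either direction. In amino acid synthesis 3 of 48 genes were lower and 1, SER3, higher (median −0.36), and in sulfur assimilation 1 of 21 was lower: MET16, of the reduction of sulfate, had 67.7, 60.4 and 78.6 in IAA and 179.2, 139.9 and 140.4 in DMSO (−1.15 ± 0.24 SE, adjusted p = 0.00419). For weak acid and drug efflux, 1 of 16 was higher, PDR12, and 1 lower, PDR10 (−1.86, with fewer than 15 normalised reads in every library), and the median was 0.03. In the uptake and use of uracil, the route by which 4tU enters RNA, 3 of 15 genes were lower (20.0%) and 0 higher, with a median of −0.53. FUR4 (the uracil permease) had 2.71, 2.63 and 2.15 in IAA and 4.54, 11.9 and 7.68 in DMSO (−1.63, edgeR, adjusted p = 0.0478). Its raw T>C reads averaged only 2.33 in IAA and 7 in DMSO. URA7 (CTP synthase) and FCY1 (cytosine deaminase) were lower by log2 changes of −0.91 and −0.75 (edgeR, adjusted p = 0.0220 and 0.0390). Leaving out 1 library raised the adjusted p (edgeR) to as much as 0.198 for FUR4, 0.125 for URA7 and 0.254 for FCY1. FUR1, which salvages uracil, had a log2 change of −0.31 (edgeR, adjusted p = 0.417). The part of uracil uptake in the share of T>C reads was not tested.

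**Figure D4:**
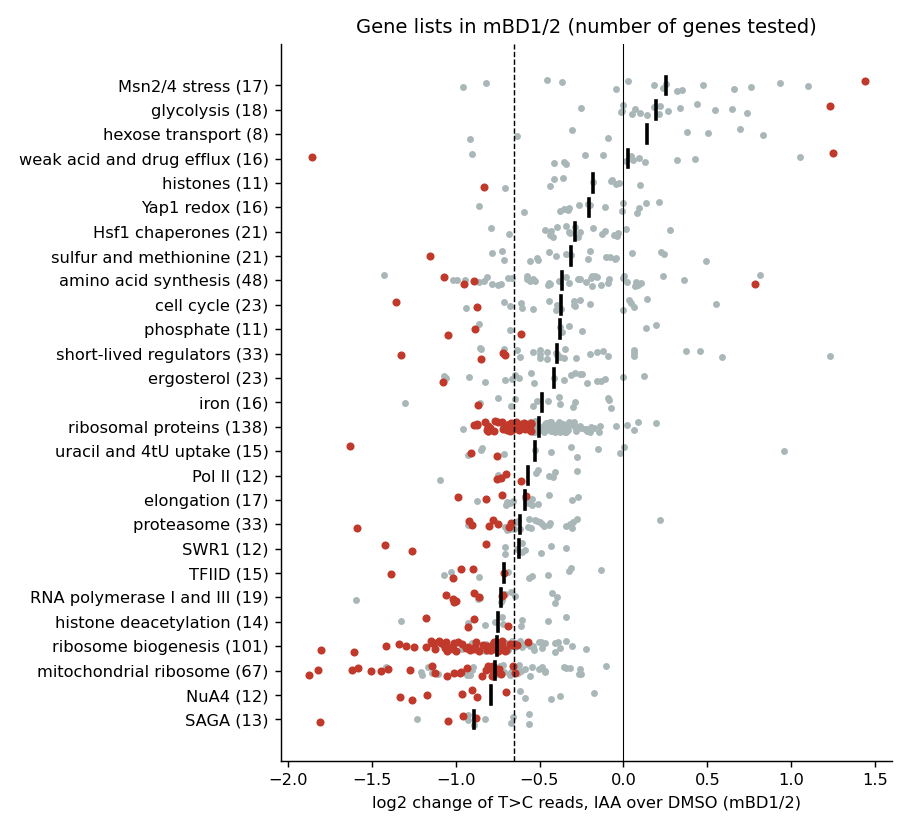
Log2 change of T>C reads, IAA over DMSO on library totals (x axis), of each tested gene (points, red at an adjusted p under 0.05) in lists of at least 8 tested genes (rows, numbers in brackets), with the list median (black bar), the median of all genes at −0.65 (dashed line) and 0 (solid line). Msn2/4 stress and glycolysis genes have medians of 0.25 and 0.20, and SAGA and NuA4 genes of −0.89 and −0.79.

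Remaining phosphate, iron, sterol, proteasome and cell cycle genes filled the middle. Of 33 proteasome genes 8 were lower (24.2%, median −0.62, PRE8 at −1.58), close to the 22.1% and −0.65 of all genes. Of 11 phosphate genes 3 were lower (27.3%, median −0.38, PHM6 at −1.05), of 16 iron genes 1, the copper chaperone ATX1 (−0.87), of 23 sterol genes 1, the reductase HMG2 (−1.07), and of 23 cell cycle genes 2, the cyclin CLB3 (−1.35) and the transcription factor SWI6 (−0.87). Among 33 transcription factors and growth regulators with unstable mRNAs 4 were lower and the median was −0.39. None of these lists had a gene called higher, beside 0.114% of all genes tested.

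How strongly a gene could be called depended on its reads. The tested genes were split into 4 groups of equal size by their level in the DMSO libraries of WT A to C, which the fit did not use. In the highest group 39.4% of genes were lower with a median log2 change of −0.58 and a median SE of 0.25, and in the lowest group 8.30% with a median of −0.61 and a median SE of 0.56. The groups between them had medians of −0.73 and −0.67. The median fall thus showed no steady trend with level, while the share of calls rose with it. Genes with the smallest labelled share in those WT libraries, up to 7.73% of their reads, had a median of −0.50, and the other 3 such groups lay between −0.71 and −0.68. The 257 tested genes that do not code for protein had a median of −0.13, with 11 lower and 2 higher, against −0.67, 1150 lower and 4 higher for the 4994 that do.

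Set against the unmodified copy, no single gene passed the test of a difference in response. WT had a median log2 change on IAA of −0.37 over the same genes, with 0 lower and 0 higher (724 and 4 with an unadjusted p below 0.05). The change in mBD1/2 minus that in WT had a median of −0.26, and the interaction test called 0 genes lower and 0 higher (edgeR quasi-likelihood, 228 and 21 with an unadjusted p below 0.05). The WT libraries A to C, whose library numbers lie near those of mBD1/2 and in which RPL41A took 13.4% to 19.9% of reads in IAA and 14.3% to 17.6% in DMSO, gave −0.23 and again 0 and 0 (6.21% and 1.43% of genes without adjustment). With size factors the median turned to 0.06, with 0 and 0 called.

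Point mutation and deletion of the bromodomains gave medians of similar size, and again no gene passed the test of a difference. ΔBD1/2 had a median log2 change of −0.75, with 1644 genes lower and 6 higher, and the change in mBD1/2 minus that in ΔBD1/2 had a median of 0.11, with 0 lower and 0 higher (50 and 160 with an unadjusted p below 0.05). Of the genes lower in mBD1/2, 613 were also lower in ΔBD1/2, which is 52.8% of the list of mBD1/2 and 37.3% of that of ΔBD1/2, while 31.3% of all tested genes were lower in ΔBD1/2. Over all 5251 genes, the changes in mBD1/2 correlated (Pearson) with those in ΔBD1/2 at r = 0.33, in mET(4) at 0.37, in Bdf1/2-AID at 0.47 and in WT at 0.10. Over the 1302 genes with a mean of at least 50 T>C reads, the same correlations were 0.68, 0.71, 0.76 and 0.31. These are descriptions over genes, which are no independent replicates, and no libraries are shared between the strains. The mutants of a single bromodomain had medians of −0.22 (mBD1, 15 lower) and −0.24 (mBD2, 4 lower). The change in mBD1/2 differed from theirs by medians of −0.41 and −0.39, taken on library totals only. In either direction 0 genes passed the threshold (650 and 28, and 519 and 18, with an unadjusted p below 0.05). RPL41A took 1.49% to 2.32% of reads in mBD1, 1.44% to 2.32% in mBD2 and 3.71% to 4.54% in ΔBD1/2. In mBD1/2 it took 12.02% to 20.9%, so strain and library composition cannot be told apart here. With size factors the difference from ΔBD1/2 had a median of 0.10, with 0 genes called.

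The fall in mBD1/2 was smaller than without any further BDF1 copy. Bdf1/2-AID had a median log2 change of −1.83, with 4219 of 5251 genes lower and 16 higher. The change in mBD1/2 minus that in Bdf1/2-AID had a median of 1.11, with 1691 genes higher (32.2%) and 1 lower (0.019%). RDS3, a component of the U2 snRNP, had 56.9, 37.7 and 24.8 T>C reads per 10M in mBD1/2 in IAA and 81.7, 78.2 and 79.0 in DMSO, and in Bdf1/2-AID 1.58, 1.77 and 4.43 in IAA and 44.9, 39.8 and 70.5 in DMSO. The changes differed by 3.16 ± 0.57 (SE, edgeR interaction, adjusted p = 3.16e-05). DAD3, of the kinetochore ring complex, and CMC1, of cytochrome c oxidase assembly, differed by 3.01 ± 0.64 (adjusted p = 3.58e-04) and 2.97 ± 0.59 (adjusted p = 1.30e-04). In all of these the IAA libraries of Bdf1/2-AID held few reads, at most 4.75 per 10M. The gene that lay lower was YBR012W-B, a Ty1 element with many copies, named after its value was seen.

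These libraries differed also in composition: RPL41A took 12.02% to 20.9% of reads in mBD1/2 and 3.47% to 5.54% in Bdf1/2-AID. With size factors the difference had a median of 0.53, with 168 genes higher and 12 lower. Nearly all genes lower in mBD1/2 were among those lower in Bdf1/2-AID, 1127 genes or 97.1% of the list of mBD1/2 and 26.7% of that of Bdf1/2-AID, which itself held 80.3% of the genes tested. Against mET(4), whose library numbers adjoin those of mBD1/2, the median was 0.40, with 0 lower and 0 higher (0.19% and 8.87% of genes without adjustment), and mET(4) itself had a median of −1.07 with 2099 lower. Among the 23 strains, ordered by this median on library totals, mBD1/2 came at place 7, between ΔNPS/CPS at −0.68 and ΔB at −0.59. Differences between neighbours in this order were not tested. The median levels of single mBD1/2 libraries had an SD of 0.18 within a treatment, which is no error of a difference between strains. ΔNPS/CPS started from a low level, with T>C shares of 1.14%, 1.40% and 1.25% in DMSO, against 3.43%, 3.74% and 3.88% in mBD1/2. The paper left ΔNPS/CPS, mNPS/CPS and ΔCPS out of its further analysis for dominant-negative effects.

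**Figure D5:**
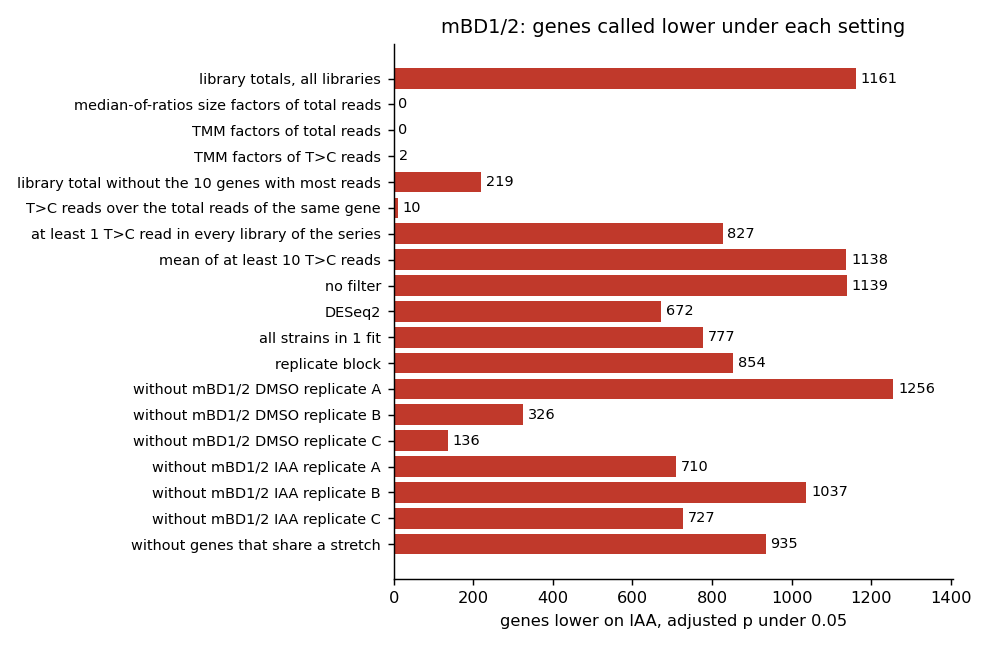
Number of genes lower in IAA at an adjusted p under 0.05 in mBD1/2 (x axis, starting at 0) under the setting used here (top bar, 1161) and each other setting (rows). The count is 0 with size factors or TMM factors of total reads and 2 with TMM factors of T>C reads, and among settings on unaltered library totals it is lowest, at 136, without DMSO replicate C.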

How the data were processed

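The deposited files held raw counts per gene: the authors trimmed reads with fastp 0.23.2 and bbduk, aligned and counted them with slamdunk 0.4.3 over R64 gene regions that include the 3′ UTR, and gave total reads and T>C reads (at least 2 conversions). Of 6465 gene IDs, 6462 matched a RefSeq locus tag. Starts were made 1-based. The members and lists were chosen with earlier results of these data known. T>C counts of 5251 genes with at least 1 read in each of the 6 libraries were fitted with edgeR 4.0.16 (glmQLFit, glmQLFTest) in R 4.3.3, with the library total of all reads as the scale, Benjamini-Hochberg adjustment over all genes and a threshold of 0.05, and interactions with other strains over the same genes. The test was checked on simulated counts in which few genes changed, as many up as down. That check does not cover a shift of most genes in 1 direction. The authors' methods scale by size factors of total reads, used here as an alternative, as were DESeq2 1.42.0 and TMM. Single values were tested by exact permutation (scipy 1.17.1). No spike-in was used here.

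Named genes were the targets of the strain construction, the 10 largest falls and rises among called genes that had no overlap and averaged 50 T>C reads or more under one treatment (rises filled up to 5 by p), up to 3 called members of each list by size of change, and the 3 largest differences in each direction for each interaction. Members named beyond these (ESA1, TAF7, TDH3, CDC19, ADH1, DDR2, HXT7, RGT2, FUR1) were chosen after their values were seen. Counted regions of 1316 genes share a stretch with another gene on the same strand. Replicates are biological per the methods, and how cultures were paired is not given in the sources used here.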

Additional observations from a re-analysis of the deposited data

Results flagged for a closer look

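The response to IAA differed between mBD1/2 and Bdf1/2-AID, the strain with no further BDF1 copy, by the interaction test: 1691 genes were higher and 1 was lower at an adjusted p under 0.05 (edgeR quasi-likelihood). The named genes of this difference were RDS3 at 3.16, DAD3 at 3.01 and CMC1 at 2.97 on the log2 scale, and the interaction tests with WT, ΔBD1/2 and mET(4) called 0 genes. The libraries of mBD1/2 and Bdf1/2-AID also differ in their numbers and in the share of RPL41A reads, and strain and library set cannot be told apart here. With 3 libraries per group, no search for single outlying libraries was made within mBD1/2.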

How the results depend on the processing

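In mBD1/2, IAA against DMSO gave 1161 genes lower, 6 higher and a median log2 change of −0.65 on library totals. These became 0 lower and −0.25 with size factors of total reads, 0 lower and −0.26 with TMM factors of total reads, 2 lower, 41 higher and −0.0199 with TMM factors of T>C reads, and 10 lower, 0 higher and −0.25 over the gene's own total reads. Fewer genes were also lower without the 10 genes with most reads (219) and with DESeq2 (672, median −0.66), and 3 were higher both with genes seen in every library of the series and with all strains in 1 fit. The cause of these moves was not tested. Without each library in turn, 136 to 1256 genes were lower and 1 to 20 higher, with medians of −0.74 to −0.57. Other filters gave 827 of 2751 genes lower (30.1%, seen in every library of the series), 1138 of 3903 (29.2%, a mean of at least 10 T>C reads) and 1139 of 6230 (18.3%, no filter), and leaving out genes that share a stretch, an alternative chosen after the data were seen, 935. The share of T>C reads differed by −0.948 percentage points, by −0.925 without the 10 genes, by −0.967 in nuclear genes and by −1.07 to −0.775 without each library in turn, an alternative added after the data were seen. Total reads called 1063 lower and 8 higher, and 0 and 2 with TMM factors.

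For the differences between strains, size factors moved the median to 0.0636 against WT, 0.21 against mET(4) and 0.53 against Bdf1/2-AID (168 higher, 12 lower). Without each library in turn, 0 genes were called against WT and ΔBD1/2, with medians of −0.35 to −0.18 and 0.01 to 0.21. Against mET(4) 0 were lower and 0 to 1 higher (median 0.28 to 0.51), and against Bdf1/2-AID 0 to 8 lower and 1205 to 1956 higher (median 1.00 to 1.18). Of the named genes, PDR12 turned to −0.26 over its own total reads and SPL2 to 0.0537 with TMM factors of T>C reads. The replicate letters were not used as pairs in the main fit. Deviations of same-lettered IAA and DMSO libraries correlated at 0.12, −0.02 and 0.02, and not every library correlated best with its own letter. With so few libraries, these values cannot decide whether the letters mark shared cultures. With the letter as a replicate block, 854 genes were lower and 4 higher in mBD1/2 (median −0.67), and against Bdf1/2-AID 1402 were higher and 1 lower. The interaction tests with WT, ΔBD1/2 and mET(4) called 0 genes in either direction with the block. The median tested gene had 23 T>C reads in DMSO, which limits single calls.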
